A study of Mus musculus with 8 samples.

Results

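The Hes and Hey genes encode basic helix-loop-helix repressors. The family was taken as the 8 genes Hes1, Hes3, Hes5, Hes6, Hes7, Hey1, Hey2 and Heyl. Members were found by the gene name given to each non-control probe on the array. Each gene had 1 probe, so the family comprised 8 of 55681 probes and 8 of 36406 gene names. Expression was profiled on 8 single-colour Agilent arrays, all at day 6 of neural induction. Mouse embryonic stem cells (ESC) were differentiated towards cells the labels call RGC-like neural progenitor cells (NPC). The 4 knockdown arrays (KD d6) came from cells carrying a short hairpin RNA against Zrf1 (shZrf1), and the 4 control arrays (Control d6) from cells carrying a control hairpin (shCtrl). The series addresses how loss of Zrf1, a J-domain protein now named Dnajc2, bears on neural progenitor identity. The labels do not say whether the arrays of a group came from separate cultures or clones, or how many hairpins were used. The p-values therefore measure the spread between arrays, which may be technical. The place of each probe within its transcript was not analysed here.

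Hes and Hey proteins sit at the output of Notch signalling. When a ligand on one cell engages a Notch receptor on its neighbour, the receptor's intracellular domain is released, joins the DNA-binding protein Rbpj in the nucleus and switches on target genes such as Hes1, Hes5 and the Hey genes. Their products bind DNA, recruit Groucho co-repressors and hold down proneural genes, which keeps neural progenitors from becoming neurons. Not every member acts in this way. Hes6 is known to oppose Hes1 and to favour neuronal differentiation, Hes7 is known for its oscillation in the embryo's presomitic mesoderm, where somites form, and the Hey genes are best known in heart and blood vessels.

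Signals are given as log2 of the background-corrected intensity relative to the 75th percentile of the same array, so that 0 is that percentile. Changes are KD minus Control, and levels of different probes are not compared. On each array between 53.4% and 60.3% of spots were well above background, and no spot was saturated. The number of arrays limits the precision. The targeted gene Dnajc2 was lower on every KD array than on any Control array. Its log2 signal was -2.32 ± 0.23 in KD and 1.87 ± 0.11 in Control (SD, n = 4 arrays each), a change of -4.19 (SE 0.12, limma adjusted p = 1.39e-07). Arrays lay on 3 slides that each held both groups. The KD arrays named 1 and 2 share a number in the deposited array names, as do KD arrays 3 and 4, with 1 of each pair marked TR, a mark the labels do not explain.

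The family split at day 6. Hes5, Hes3 and Hes6 fell in KD cells, Hes7 rose, and Hey1 rose by a small amount. Hes1 was close to background, and Hey2 and Heyl were at background on all 8 arrays. Testing required a probe to exceed background clearly on every array of KD, of Control or of both, which held for 5 of the 8 members. All 5 were called at a limma adjusted p under 0.05, 3 lower and 2 higher. Hes3 was tested through its Control arrays alone, so the count supports nothing for it. Of 21750 tested genes 57.6% were called, 28.5% lower and 29.1% higher, so a call by itself is common in this comparison. By probe the shares were 57.0%, with 28.1% lower and 29.0% higher. Scaling the arrays by their medians gave 32.0% lower and 19.0% higher, and moved the median change of all tested genes to -0.13, against 0.04 as reported. A call with at least a 16-fold fall was made for 35 tested genes (0.161%), Hes5 among them. This cut lies close to the 16.2-fold fall of Hes5 itself. It also counts fitted falls from dim KD signals, that of Hes3 included. In RNA from whole cultures, fewer cells of a type and less RNA per cell cannot be told apart.

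**Figure D1:**
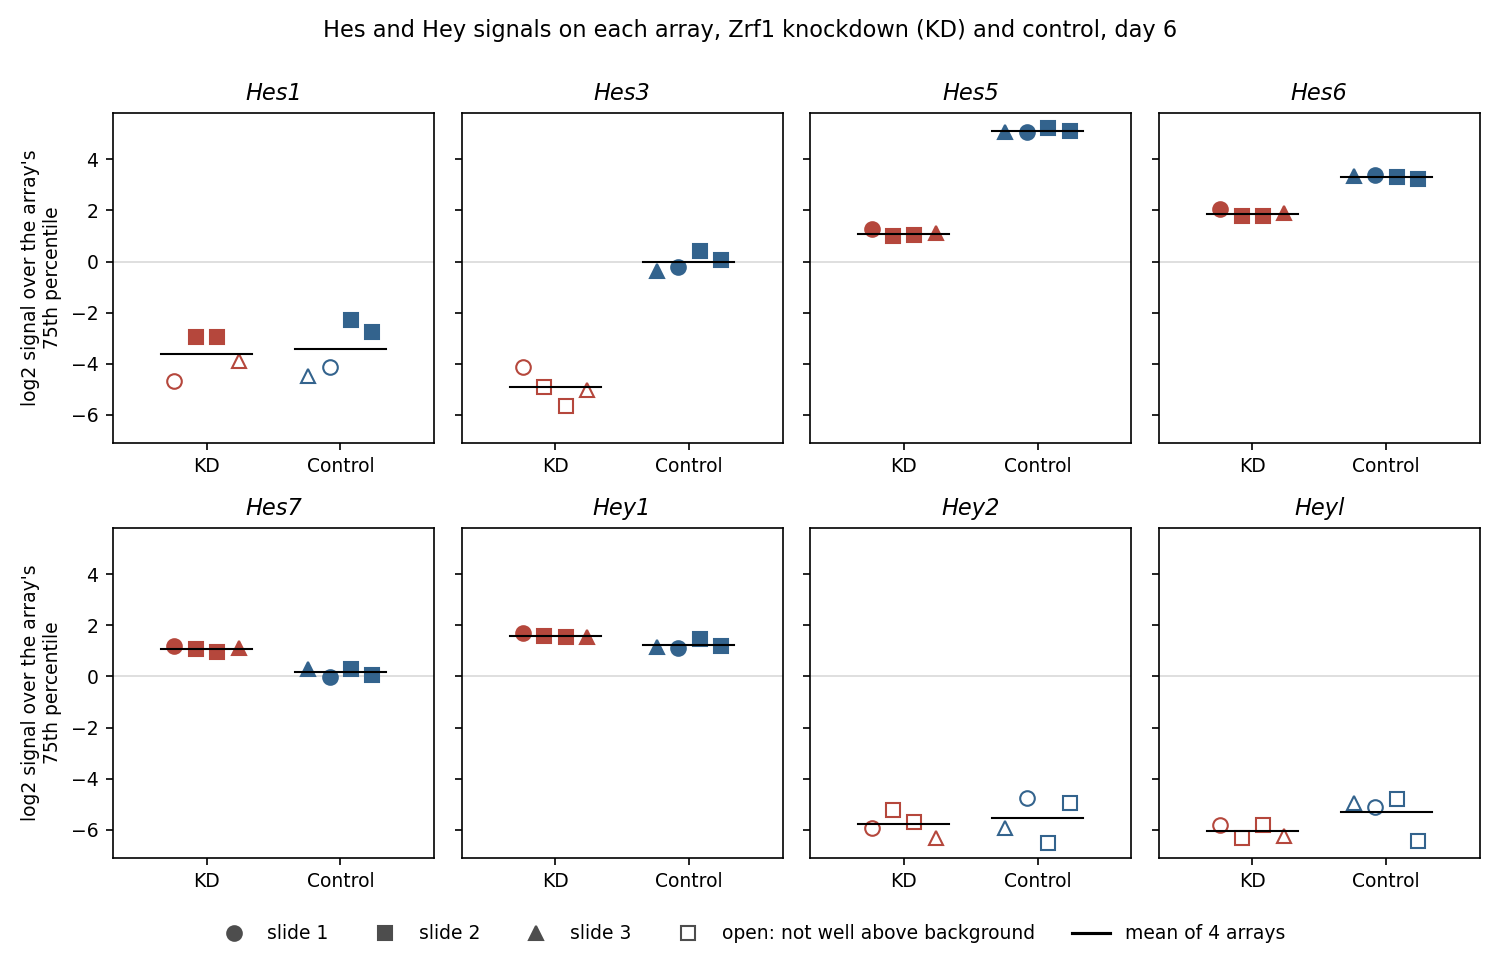
Log2 signal of each Hes and Hey probe on the 4 KD arrays (left in each panel) and the 4 Control arrays (right), with 1 point per array, the marker shape giving the slide and a line at the group mean. Open points were not well above background. Hes5, Hes3 and Hes6 lie lower in KD, Hes7 and Hey1 higher, and Hes1 was measured on the 4 arrays of slide 2 alone.

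Hes5, the Notch effector of neural progenitors, fell on every slide and stayed measurable in both groups. Its processed intensity was 1170, 1377, 1149 and 1133 units on KD arrays 1 to 4, and 22221, 19364, 25331 and 20958 units on Control arrays 1 to 4. On the log2 scale these were 1.28, 0.98, 1.03 and 1.10 in KD, and 5.07, 5.07, 5.24 and 5.10 in Control. The highest KD array thus lay far below the lowest Control array, and the arrays within a group differed little. The change was -4.02 (SE 0.08, 95% interval -4.22 to -3.83), which is 16.2-fold lower (limma adjusted p = 5.06e-08). Within slides 1, 2 and 3 it was -3.79, -4.16 and -3.97. The probe lies at chr4:154336347-154336406 on the plus strand of mm9. By fitted change Hes5 was number 35 among the falls of 21750 tested genes.

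Hes3, a member that keeps neural progenitors of the midbrain and hindbrain undifferentiated together with Hes1 and Hes5, was lost from measurement in KD cells. Its log2 signal was -4.13, -4.90, -5.66 and -5.02 on KD arrays 1 to 4, none of them well above background. Control arrays 1 to 4 gave -0.36, -0.21, 0.42 and 0.05, all well above background. The groups did not overlap, as for 55.0% of tested genes. Because KD has only an upper bound, the fall is given as at least 15.3-fold, from the Control mean against the lowest signal that counted as above background on each KD array or the probe's own signal where higher. The limma adjusted p was 4.64e-06, and it uses the dim signals as they are. Since Hes3 entered the test through its Control arrays, its call supports nothing by itself. The fitted change was -4.90, and with a normexp background correction, which adds an offset to every spot, it was -2.76. The probe lies at chr4:151660083-151660142 on the minus strand of mm9.

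Hes1, the founding Notch target of the family, could not be tested. Its log2 signal was -4.68, -2.95, -2.94 and -3.89 on KD arrays 1 to 4, and -4.49, -4.11, -2.30 and -2.74 on Control arrays 1 to 4. KD arrays 2 and 3 and Control arrays 3 and 4 were well above background, and these are the 4 arrays of slide 2. None of the 4 arrays of the other slides was. The groups overlapped. Within slide 2 the KD arrays averaged -2.94 and the Control arrays -2.52, a difference of -0.42 with no test, and within slides 1 and 3 the differences were -0.56 and 0.60 from signals at background. A fit of all probes without the filter gave a change of -0.20 (SE 0.60, limma adjusted p = 0.851), too wide to say whether Hes1 moved. The probe lies at chr16:30067820-30067879 on the plus strand of mm9 and is the array's single probe named Hes1.

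Hes6, which is known to inhibit Hes1 and to promote neuronal differentiation, fell as well. The KD arrays gave log2 signals of 2.06, 1.77, 1.79 and 1.91, and the Control arrays 3.37, 3.37, 3.30 and 3.24. Every KD array was below every Control array. Hes6 changed by -1.44 (SE 0.08, 95% interval -1.63 to -1.25), a 2.72-fold fall (limma adjusted p = 2.58e-06), with -1.31, -1.50 and -1.46 within slides 1, 2 and 3. At least a 2-fold fall was called for 7.46% of tested genes. Its probe lies at chr1:93308264-93308323 on the minus strand of mm9.

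Hes7, the somite clock repressor, went the other way. It measured 1.20, 1.08, 0.95 and 1.13 on KD arrays 1 to 4, and 0.29, -0.01, 0.31 and 0.07 on Control arrays 1 to 4. Every KD array was above every Control array. The rise was 0.93 (SE 0.10, 95% interval 0.70 to 1.15), or 1.90-fold (limma adjusted p = 7.49e-05), and the within-slide values were 1.22, 0.83 and 0.84. Its probe lies at chr11:68936702-68936761 on the plus strand of mm9. Some markers of mesoderm, the tissue in which Hes7 is best known, rose in the same arrays. The 5 tested genes of a list of 9 were all called higher, against 29.1% of all tested genes. Among them were the cardiac actin Actc1 at 8.80-fold and the cardiac troponin Tnnt2 at 1.84-fold. The T-box factor Tbx6 of presomitic mesoderm rose 2.48-fold, with 1 of its 2 probes called. The atrial myosin light chain Myl7 had 2 of 4 Control arrays above background. It was tested through its KD arrays alone, so the count supports nothing for it. The other 4 were above background on all 8 arrays. Over the 5 tested genes, Myl7 included, the mean log2 signal was -0.85 to -0.74 on KD arrays and -2.96 to -2.67 on Control arrays. The remaining 4 genes of the list, which were not tested, did not exceed background on any KD array. Of these, Hand2 did so on 3 Control arrays, T on 1, and Hand1 and Mixl1 on none. The part of mesoderm cells in the Hes7 signal was not tested.

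Hey1, a Notch target of vessels, heart and some neural progenitors, rose slightly. KD arrays 1 to 4 gave log2 signals of 1.71, 1.60, 1.53 and 1.56, and Control arrays 1 to 4 gave 1.14, 1.10, 1.49 and 1.19. The groups did not overlap, but the lowest KD array exceeded Control array 3 by little. The change of 0.37 (SE 0.10, 95% interval 0.14 to 0.60) was a 1.29-fold rise (limma adjusted p = 0.0120), and it was 0.61, 0.22 and 0.42 within the slides. This call depends on the setting. It was lost with arrays scaled by their medians (0.20, limma adjusted p = 0.332), with the KD arrays that share a number averaged (limma adjusted p = 0.0612) and without KD arrays 1 and 2 (0.31, limma adjusted p = 0.0992). Leaving out single arrays kept the change between 0.33 and 0.46. The probe lies at chr3:8663432-8663491 on the minus strand of mm9.

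Hey2, which is required in heart and arteries, and Heyl, the third Hey gene, stayed at background. Hey2 had log2 signals of -5.91, -5.22, -5.71 and -6.31 in KD, and of -5.93, -4.75, -6.50 and -4.94 in Control. Heyl had -5.82, -6.31, -5.82 and -6.23 in KD, and -4.96, -5.09, -4.78 and -6.44 in Control. No array was well above background for either gene, so no fold is given and no difference was detectable. Their probes lie at chr10:30552729-30552788 and chr4:122926975-122927034 of mm9. Of 7 listed endothelial genes, Cdh5, Emcn and Tie1 were likewise at background on all arrays, and Tek was above it on 3 Control arrays and no KD array. The other 3, Flt1, Pecam1 and Kdr, were well above background on every array, with Kdr at 3.12 in KD and 2.95 in Control. Endothelial genes were thus not absent as a group.

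**Figure D2:**
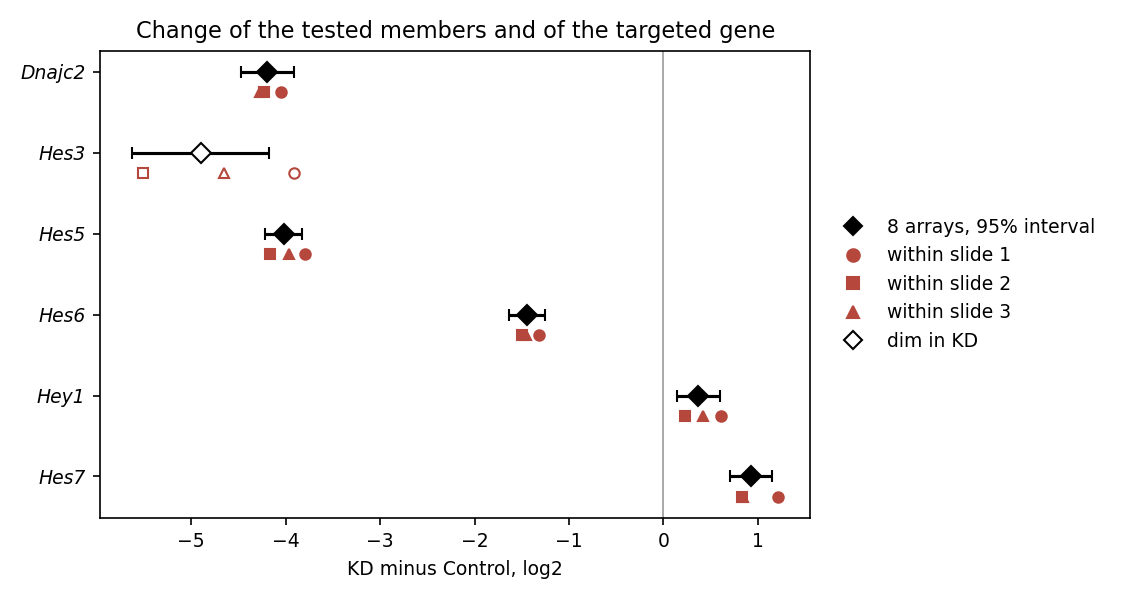
KD minus Control on the log2 scale for the 5 tested members and for Dnajc2, as black diamonds with the 95% interval over 8 arrays, and within each slide as red markers. Open markers stand for Hes3, whose KD signal is at background. Hes3, Hes5 and Hes6 lie below 0 on every slide, and Hey1 and Hes7 above 0.

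The changes of the members were set against each other. The difference between the log2 signals of 2 genes on the same array removes any scaling of that array, and it was compared between the groups by a two-sided exact permutation test for the 10 pairs of tested members. With all 8 arrays exchangeable, the smallest p this design allows is 0.0286. Permuting within slides allows 0.0833 and averaging the KD arrays that share a number allows 0.0667, so under either no pair can pass 0.05. Hes5 minus Hes6 averaged -0.78 ± 0.02 in KD and 1.80 ± 0.12 in Control (SD, n = 4 each), so Hes5 fell 5.98-fold more than Hes6 (exact p = 0.0286, adjusted over the pairs 0.0317). Hes5 minus Hes7 averaged 0.01 ± 0.09 in KD and 4.96 ± 0.13 in Control, an unequal change of 30.9-fold with the same exact p. Hes7 minus Hey1 averaged -0.51 ± 0.06 in KD and -1.06 ± 0.15 in Control, so Hes7 rose 1.47-fold more than Hey1, again with the same exact p. In all 6 pairs without Hes3 the groups did not overlap, which also held for 54.5% of all pairs of genes above background on all 8 arrays. The 4 pairs with Hes3 are not read, because its KD signal is background.

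The promoters of the members that moved in opposite directions are shown because Rbpj, the nuclear partner of Notch, binds the motif GTGGGAA. RefSeq promoters of build GRCm38.p6 covered 4 of the 8 members, with 5 start sites. The 250 bases before each start were searched on both strands, and the capitals mark GTGGGAA or its reverse complement.
Hes5, chr4:154960673-154960922, plus strand: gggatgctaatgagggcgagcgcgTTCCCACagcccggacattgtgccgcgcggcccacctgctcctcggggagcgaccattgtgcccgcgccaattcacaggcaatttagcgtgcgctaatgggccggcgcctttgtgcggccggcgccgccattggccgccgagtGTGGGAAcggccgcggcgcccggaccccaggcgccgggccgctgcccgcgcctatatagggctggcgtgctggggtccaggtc
Hes7, chr11:69120203-69120452, plus strand: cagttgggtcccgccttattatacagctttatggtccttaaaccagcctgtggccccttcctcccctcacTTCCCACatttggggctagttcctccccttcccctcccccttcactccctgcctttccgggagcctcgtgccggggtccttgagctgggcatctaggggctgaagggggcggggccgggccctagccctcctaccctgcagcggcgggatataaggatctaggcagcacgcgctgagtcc
Hes6 upstream start, chr1:91414039-91414288, minus strand: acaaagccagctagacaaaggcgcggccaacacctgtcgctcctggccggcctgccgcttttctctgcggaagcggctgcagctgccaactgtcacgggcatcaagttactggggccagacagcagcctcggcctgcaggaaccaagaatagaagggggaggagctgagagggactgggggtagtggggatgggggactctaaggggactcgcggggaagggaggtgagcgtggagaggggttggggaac
Hes6 downstream start, chr1:91413223-91413472, minus strand: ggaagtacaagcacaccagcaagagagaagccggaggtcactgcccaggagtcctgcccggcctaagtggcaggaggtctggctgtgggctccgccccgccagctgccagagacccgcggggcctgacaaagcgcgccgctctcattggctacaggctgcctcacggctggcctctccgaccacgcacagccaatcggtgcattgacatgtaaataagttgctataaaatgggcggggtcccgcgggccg

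Hes5, the member with the 16.2-fold fall, held 2 matches, from 226 to 220 and from 83 to 77 bases before its start. Hes7, which rose, held 1, from 180 to 174 bases before its start. Hes6, which fell 2.72-fold, held none at either start. Of all 32851 promoter windows of this length, 5.42% held at least 1 match and 0.161% held at least 2. Hey2, not measurable here, held 1 match, from 207 to 201 bases before its start. The 2 sequences that Hes proteins are known to bind were searched as well. The N-box CACNAG was in Hes7 and in the downstream Hes6 start, and in 36.7% of all windows, while CACGCG was in Hes7 alone among these members, and in 7.62% of all windows. A match is a run of letters and shows no binding, and the absence of one covers these windows only.

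The rest of the Notch pathway moved in part with Hes5. A list of 39 pathway genes outside the family had 38 tested members, of which 19 fell, 8 rose and 11 were not called, against 28.5% lower and 29.1% higher over all tested genes. Its median change was -0.27, against 0.04 for all tested genes. Maml2 was tested through its Control arrays alone, so the count supports nothing for it. Of the 37 genes above background on all 8 arrays, 18 fell and 8 rose. Among receptors 3 of 4 fell, and whether any role differed from the shares over all tested genes was not tested. Notch4, known from endothelium, was at -2.18 ± 0.25 in KD and 0.60 ± 0.10 in Control and fell 6.82-fold (limma adjusted p = 9.03e-07), and Notch3 fell 2.67-fold. Notch1 was not called (-0.13, SE 0.23, limma adjusted p = 0.676). Ligands moved both ways. Dll1, a ligand of nascent neurons, was at -0.83 ± 0.04 in KD and 1.10 ± 0.10 in Control, a 3.80-fold fall (limma adjusted p = 3.11e-07), and Dll3 and Jag1 fell too. Jag2 and the ligand Dll4 rose, Dll4 by 4.75-fold (limma adjusted p = 0.000339).

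All 4 glycosyltransferases that modify Notch or its ligands fell, Pofut1 with 1 of its 2 probes called, against 28.5% of all tested genes called lower. With so few genes, this was not tested as a set. Of 6 tested proteases, 1 fell and 2 rose. The Fringe enzymes among the glycosyltransferases were Mfng at 1.87-fold, Rfng at 1.32-fold and Lfng at 1.32-fold lower. Among the genes for the nuclear complex, Rbpj rose 1.39-fold with 1 of its 2 probes called, and the coactivator Maml1 fell 1.78-fold. Dtx4, a ubiquitin ligase of the Deltex family, was at 1.83 ± 0.04 in KD and 4.85 ± 0.11 in Control and fell 8.09-fold (limma adjusted p = 7.27e-08), whereas its relative Dtx1 rose 2.59-fold. Nrarp, a Notch target that feeds back on the pathway, fell 3.42-fold (limma adjusted p = 1.62e-06).

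**Figure D3:**
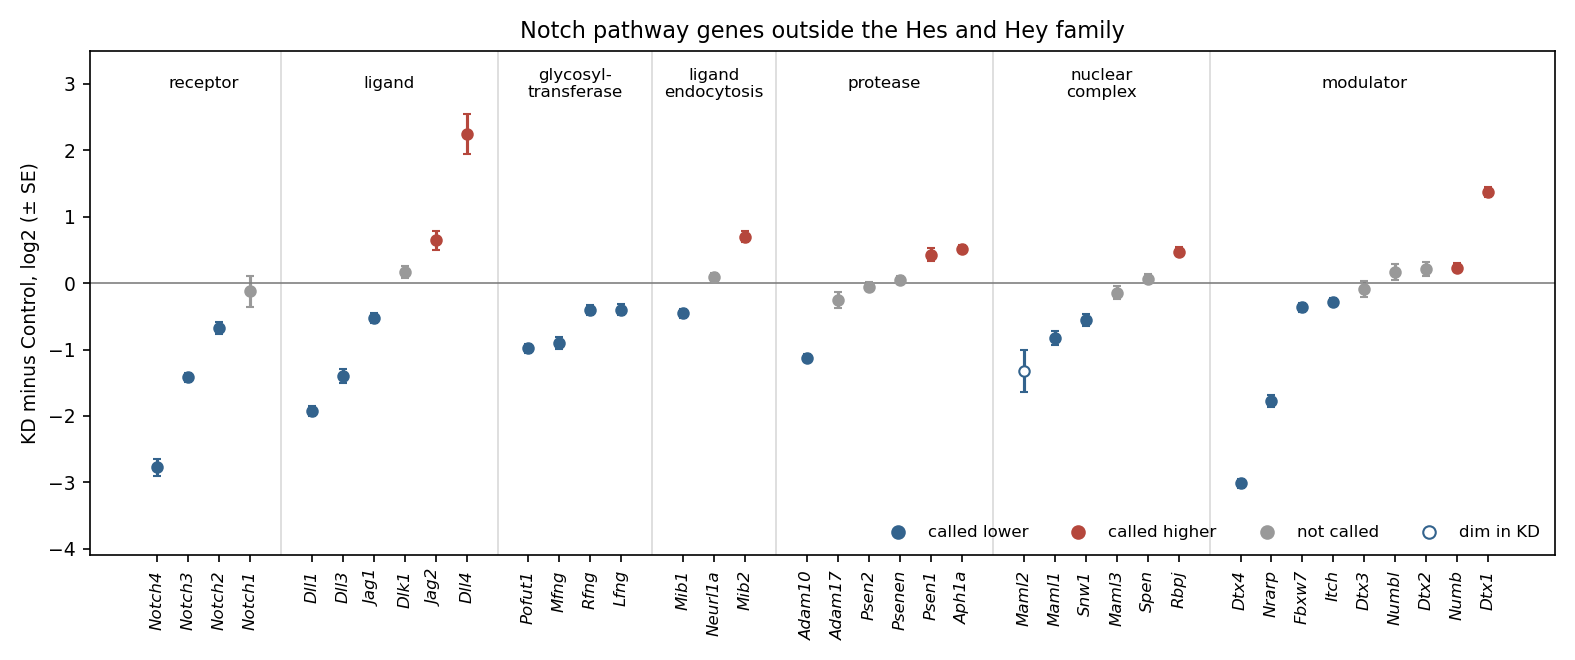
KD minus Control on the log2 scale with SE for the 38 tested Notch pathway genes outside the family, grouped by role and ordered by change within a role. Blue points were called lower, red points higher and grey points not called, and the open point marks Maml2, which was not well above background in KD. All 4 glycosyltransferases lie below 0, and ligands lie on both sides.

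Proneural genes, some of which Hes proteins are known to repress, and their E-protein partners were mostly lower in KD. The part of Hes5, Hes3 and Hes6 in this was not tested. Of 12 listed proneural genes and their E-protein partners 10 were tested, and 9 fell, 1 was not called and none rose (limma, adjusted p under 0.05). Over all tested genes 28.5% were called lower and 29.1% higher. Nhlh2 was at least 19.6-fold lower, Neurog3 fell 5.36-fold, and the E proteins Tcf12 and Tcf4, partners of proneural factors, fell 3.35-fold and 1.99-fold. Neurog1 fell 4.56-fold and was measurable on 3 of 4 KD arrays. Neurog2 and Neurod1 were at least 1.92-fold and 3.11-fold lower. Nhlh2, Neurog1, Neurog2 and Neurod1 were tested through their Control arrays alone, so the count supports nothing for them. Of the 6 genes above background on all 8 arrays, 5 fell, among them the E proteins Tcf12 and Tcf4. Atoh1, a proneural gene of the hindbrain, was at background throughout. The median change of the list was -1.97, or -1.38 with Nhlh2, Neurog2 and Neurod1 at their bounds, against 0.04 for all tested genes.

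Markers of the labelled cell type changed in the same arrays. The counts of markers below stand against 28.5% of all tested genes called lower and 29.1% called higher. The mean log2 signal over 9 neural progenitor markers was 0.06 to 0.35 on KD arrays and 2.20 to 2.29 on Control arrays. This mean and those below use dim signals as they are, so they support nothing for genes tested through 1 group alone. Of these markers 8 fell, 7 of them among the 8 above background on all arrays. Fabp7 was tested through its Control arrays alone, so the count supports nothing for it. The radial glial protein gene Fabp7 was at least 109-fold lower and at background on every KD array, and Sox1 fell 5.24-fold, Slc1a3 and Vim each 3.84-fold, Prom1 2.43-fold, Sox2 2.37-fold, Nes 1.98-fold and Msi1 1.55-fold, the last with 1 of 2 probes called. Pax6 was not called with its brighter probe (-0.24, SE 0.11, limma adjusted p = 0.101), and its other probe was called higher. Control cells thus carried all 9 markers of the labelled type, whereas KD cells had lost measurable Fabp7. Over 7 neuronal markers the mean was -0.93 to -0.64 in KD and 0.09 to 0.20 in Control. Of these 5 fell, among them the tubulin Tubb3 at 7.52-fold and the RNA-binding protein gene Elavl4 at 3.35-fold, and Stmn2 rose 4.75-fold. The migration gene Dcx had 1 of 4 KD arrays above background. It was tested through its Control arrays alone, so the count supports nothing for it. Map2 and Rbfox3 fell with their brighter probe only. The other probe of Map2 was not called, and that of Rbfox3 was called higher. Over 8 endoderm markers, all called higher, the mean was -0.16 to -0.04 in KD and -2.62 to -2.50 in Control. Gata6 was 8.84-fold, Gata4 7.21-fold, Cubn 41.4-fold and Afp at least 9.24-fold higher. Gata4, Cubn and Ttr were measurable on 3 of 4 Control arrays and Afp on none, so the count supports nothing for these 4. The other 4 were above background on all arrays, but Sox17 and Foxa2 each had another probe that was not called. Over 7 pluripotency markers the mean was 1.56 to 1.66 in KD and 2.38 to 2.61 in Control, with 5 lower and 1 higher. Nanog fell 5.44-fold with 1 of 2 probes called, Esrrb 3.42-fold and Zfp42 1.87-fold, and Klf4 rose by 0.58 on the log2 scale. Their part in the changes of Hes5, Hes3, Hes6 and Hes7 was not tested.

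**Figure D4:**
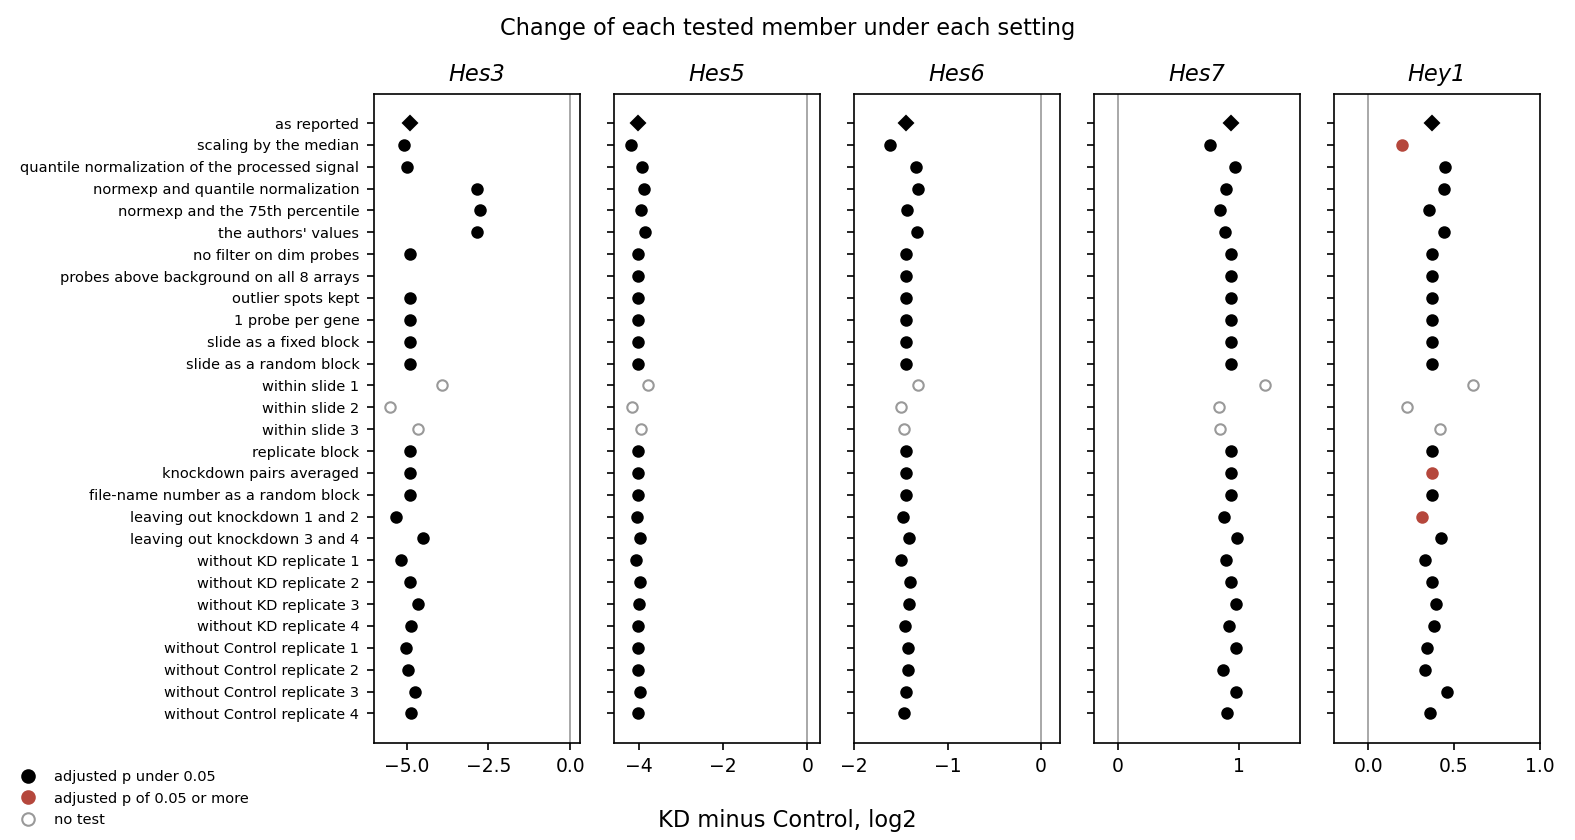
KD minus Control on the log2 scale for the 5 tested members under each processing setting, 1 row per setting, with a separate horizontal scale for each gene. Black points passed an adjusted p of 0.05, red points did not, and open points have no test. Hey1 is the member with red points, and Hes3 has the widest range, from -5.51 to -2.76.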

How the data were processed

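Total RNA from 4 KD and 4 Control samples (100 ng each) was amplified from an oligo-dT primer, labelled with Cy3 and hybridised to Agilent arrays of design 028005, per the labels and the file headers. The deposited intensity values were extracted with Agilent Feature Extraction 10.7.3.1 and background-subtracted and detrended within each array, per the file headers, with no scaling between arrays. The authors' deposited log2 values of the same arrays, whose processing is not given in the sources used here, served as an alternative. Probe positions are on mm9.

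For the present comparison outlier spots were removed, spots of a probe averaged, log2 taken and each array's 75th percentile subtracted. KD was compared with Control by limma 3.58.1 under R 4.3.3, with eBayes moderation, two-sided p-values and Benjamini-Hochberg adjustment, over the 29091 probes that passed the background filter in KD, in Control or in both. A gene is read by its brightest tested probe. On data simulated for this comparison with 29091 probes, 94% of 2-unit and 66% of 1-unit log2 changes were recovered, with 5 false calls. Only 100 probes were changed at each size, against 57.0% of probes called in the real data. These rates therefore do not carry over to the real comparison. Symbols were updated through a RefSeq table (26300 probes by accession, 2044 by symbol, 355 by synonym).

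Replicate numbers did not pair the arrays: same-numbered arrays' deviations from their group means correlated between -0.19 and 0.11. Arrays sharing a slide correlated between 0.11 and 0.32. Alternatives varied scaling, background correction, filter, blocks and arrays. The members and the 10 companion lists were chosen with earlier results of these data known. Beside the members and the targeted gene, the text names up to 4 called genes per list with the smallest p, all neural progenitor markers and the 3 genes nearest to Hes5. The rule's genes nearest to Hes1 could not be given, as Hes1 was not tested. Other genes are exceptions named after their values were seen. One gene of the proneural list is counted but not reported here.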

Additional observations from a re-analysis of the deposited data

How the results depend on the processing

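Hes5, Hes6 and Hes7 kept their direction and their call under all 24 tested alternatives. Hes3 did so under the 23 that tested it, since probes above background on all 8 arrays exclude it. As Hes3 passes the filter through its Control arrays alone, its calls in these fits support nothing by themselves. Fitted changes ran from -4.19 to -3.87 for Hes5, -1.61 to -1.32 for Hes6, 0.76 to 0.98 for Hes7 and -5.31 to -2.76 for Hes3, and Dnajc2 was called in every fit. Within slide 1 the changes of Hes3, Hes5, Hes6, Hes7 and Hey1 were -3.91, -3.79, -1.31, 1.22 and 0.61, and within slide 2 those of Hes3, Hes5 and Hey1 were -5.51, -4.16 and 0.22, each further from the reported value than 1 SD between arrays. The call of Hey1 was lost with median scaling (0.20), with knockdown pairs averaged (0.37) and without knockdown 1 and 2 (0.31), which left 1 member called higher in each case. With the replicate block the Hey1 change of 0.37 had a limma adjusted p of 0.0459, and the block changed no call of a member. Without any filter on dim probes 15.1% of tested genes were called lower and 15.8% higher. Counts in the companion lists that moved over 1.5 times were as follows. Notch genes called higher numbered 4 with median scaling. Proneural genes called lower numbered 5, and endoderm genes higher 4, with probes above background on all 8 arrays. Mesoderm genes higher numbered 3 with knockdown pairs averaged, without knockdown 1 and 2 and without knockdown 3 and 4. Endothelial genes lower numbered 0 with normexp and the 75th percentile, without a filter, with knockdown pairs averaged and without either knockdown pair, and endothelial genes higher 2 with normexp and quantile normalization and with the authors' values. Relatives called higher numbered 2 with slide as a fixed block, and Groucho genes higher 2 without knockdown 3 and 4. With single arrays left out, endothelial genes lower ran from 0 to 1, mesoderm genes lower from 0 to 1 and relatives higher from 1 to 2. The cause of these moves was not tested, except that the stricter filter tests fewer genes. Signal over background limits Hes1, Hey2, Heyl and the size of the Hes3 fall. Without the filter Hey2 and Heyl changed by -0.26 and -0.73 (limma adjusted p = 0.720 and 0.216). For each of the 6 member pairs without Hes3 the exact p was 0.0833 with relabelling within slides and 0.0667 with knockdown pairs averaged, the smallest each allows. These tests and the slide 2 value of Hes1 were added after seeing the data.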

Other observations

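The Groucho co-repressors, which Hes and Hey proteins recruit through their C-terminal tetrapeptide, moved in both directions. Of 6 tested Tle genes 3 fell and 1 rose, against 28.5% lower and 29.1% higher over all tested genes. So few genes cannot be set apart from these shares. Tle1 was at 0.98 ± 0.03 in KD and 1.98 ± 0.04 in Control (SD, n = 4 each), a 1.99-fold fall (limma adjusted p = 2.51e-06) with 1 of its other 2 probes not called. Tle6 fell 1.43-fold, Tle3 fell 1.20-fold, and Tle2 rose 1.68-fold. Tle5, a short member of the group, was not called (0.07, limma adjusted p = 0.702). Among relatives of the family, Bhlhe40, a stress and clock repressor, rose 2.79-fold (limma adjusted p = 4.66e-06), Bhlhe41 was not called (0.78, SE 0.37, limma adjusted p = 0.106), Hes2 was well above background on 2 KD arrays and 1 Control array, and Helt on none. Of 3 tested endothelial markers, Flt1 rose 3.21-fold, Pecam1 fell 1.40-fold, and Kdr was not called with its brighter probe and was called lower with the other.

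The genes whose centred log2 signals lay nearest to those of Hes5 over the 8 arrays were the Wnt receptor gene Fzd10, Btbd17 and 2610028E06Rik, with root mean square differences of 0.12, 0.13 and 0.13. Fzd10 was at -0.08 ± 0.08 in KD and 3.97 ± 0.16 in Control, and 2610028E06Rik was not well above background on any KD array.

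Hes3 and Hes5 lie 2.68 Mb apart on chromosome 4 by their mm9 probes. Of the 26 tested genes between them 7 fell (26.9%) and 11 rose (42.3%), and the median change was 0.20. Over all tested genes the shares were 28.5% lower and 29.1% higher. Among the 26, the zinc finger gene Prdm16 had a fitted change of -4.27. The nearest tested genes on either side of Hes5, Tnfrsf14 and Pank4, changed by 0.19 (SE 0.45, limma adjusted p = 0.751) and 0.36 (SE 0.08, limma adjusted p = 0.00579). Both neighbours of Hes7 rose with it, Per1 by 1.29 and Aloxe3 by 1.82 on the log2 scale (limma adjusted p = 2.73e-06 and 1.05e-05), with their probes 13.3 kb and 25.9 kb away. Beside Hey1, Stmn2 rose by 2.25 and Mrps28 fell by 0.41. Beside Hes6, Ilkap fell by 1.19 and Asb1 rose by 0.92. Gpr153, with its probe 0.697 kb from that of Hes3, fell by 0.86, and Icmt on the other side changed by -0.01 (limma adjusted p = 0.968).

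Whether Hes1 differed between the groups could not be told. Its detection followed the slide, with signal well above background on all 4 arrays of slide 2 and on none of the other 4. Of 1766 probes that were well above background on exactly 4 arrays, 51 (2.89%) showed that same pattern.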
